A study of Mus musculus with 16 samples.

Results

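The third day of retinoic acid treatment in wild-type mouse embryonic stem cells was described by setting the RNA levels of E14-WT cells at 72 h against those at 48 h. Genes entered the comparison when either of these columns held at least 1 RPKM, that is, reads scaled to gene length and to library size. This kept 9500 of the 24452 genes in the deposited table, and the comparison draws on 4 of the 16 samples. The series followed E14-WT cells and cells whose label is Suz12 knock-out (Suz12-KO) by RNA-seq before treatment and after 24, 48 and 72 h. WT cells at 48 h and WT cells at 72 h are groups of 2 samples each, and both had lost leukemia inhibitory factor (LIF), which keeps stem cells undifferentiated, and received 1 µM all-trans retinoic acid in medium renewed every 24 h. The 0 h cells were kept in serum with LIF, and all cells grew on gelatin. E14-WT is 1 cell line, and the sources used here give neither its passage nor the origin of the Suz12-KO line. The table holds 1 column for each group of 2 samples, so no spread between replicates could be computed and no test was possible. Differences are therefore given as values, with 95% intervals that cover counting error only and say nothing of how far another culture would differ.

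Retinoic acid is made from vitamin A by retinaldehyde dehydrogenases, is carried and buffered by cellular binding proteins, and is broken down by CYP26 enzymes. It binds RAR and RXR receptors on DNA, and its early targets include the CYP26 enzymes, Rarb and the anterior Hox genes. Embryonic stem cells that lose LIF and receive retinoic acid leave pluripotency and can form neural, endoderm-like or mesenchymal and smooth-muscle-like cells, depending on dose and culture. Smooth-muscle and other cytoskeletal genes are classic targets of serum response factor (SRF), which binds a sequence called the CArG box.

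The columns for WT cells at 48 and 72 h held 24731176 and 26430463 reads, and the other 6 columns held between 25277999 and 32153765. Most reads came from Gm42418, a non-coding gene that overlaps ribosomal RNA sequence, which took 60.7% of the reads at 48 h and 59.5% at 72 h in WT cells. Protein-coding genes took 26.5% and 27.7%. Each column was divided by a factor set on the median gene, which was 0.08 at 48 h and 0.10 at 72 h on the log2 scale, so this scaling moved the comparison little. The factor was -0.52 at 0 h and -0.04 at 24 h, so the printed levels at 0 h stand lower against the later ones than scaled levels would. RPKM values are printed as deposited, folds are ratios of scaled RPKM, and log2 changes are differences of log2(scaled RPKM + 0.5), which understate the change of low genes. A value of 0 stands for no reads, and for the 33 named genes longer than 200 bases with a 0 in a WT column, 3 reads would have been 0.00957 to 0.0953 RPKM. Nearest to the 1 RPKM limit, Sh2b3 and Zfp668 stood just outside with 0.9990 and 0.9997 RPKM in their higher column, and Plce1 and Sestd1 just inside with 1.0009 RPKM each. The stem-cell factor Pou5f1 was at 104, 55.9, 3.64 and 0.319 RPKM at 0, 24, 48 and 72 h, and the retinoic acid target Cyp26a1 was at 0.0218, 65.0, 50.4 and 28.7 RPKM at 0, 24, 48 and 72 h. Suz12 RNA was at 1.26 and 0.995 RPKM in WT cells at 48 and 72 h and at 2.38 and 1.35 RPKM in the line labelled Suz12-KO, where its reads were not lower.

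At 72 h, 258 of the 9500 genes (2.72%) stood at least 2-fold above their 48 h level and 171 (1.80%) at least 2-fold below it, together 4.52%. Each count of list members given below is to be read beside these shares. Over all kept genes the median log2 change was 0.01. Among the 8614 protein-coding genes kept, 193 (2.24%) were higher and 114 (1.32%) lower. In bulk samples such a difference cannot be told apart from a change in the share of cells of one type, since fewer cells of a type and less RNA per cell look alike. The 12 protein-coding genes furthest above their 48 h level by log2 change, among those with at least 5 RPKM, were Acta2, Aldh1a2, Ecm1, Igf2, Igfbp3, Dlk1, Actc1, Upk3b, Cnn1, Acta1, Hspb8 and Cdh3. The 12 furthest below it were Lefty1, Car2, Sfrp5, Dppa5a, Upp1, Dnmt3l, B3gnt7, Etv5, Stra8, Slc2a1, Mt1 and Mt2. The first set holds cytoskeletal, matrix, growth factor and adhesion genes, and the second holds stem-cell genes, a glucose transporter, the retinoid target Stra8 and the metallothioneins Mt1 and Mt2. B3gnt7, a glycosyltransferase gene, went from 10.4 to 2.03 RPKM.

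**Figure D1:**
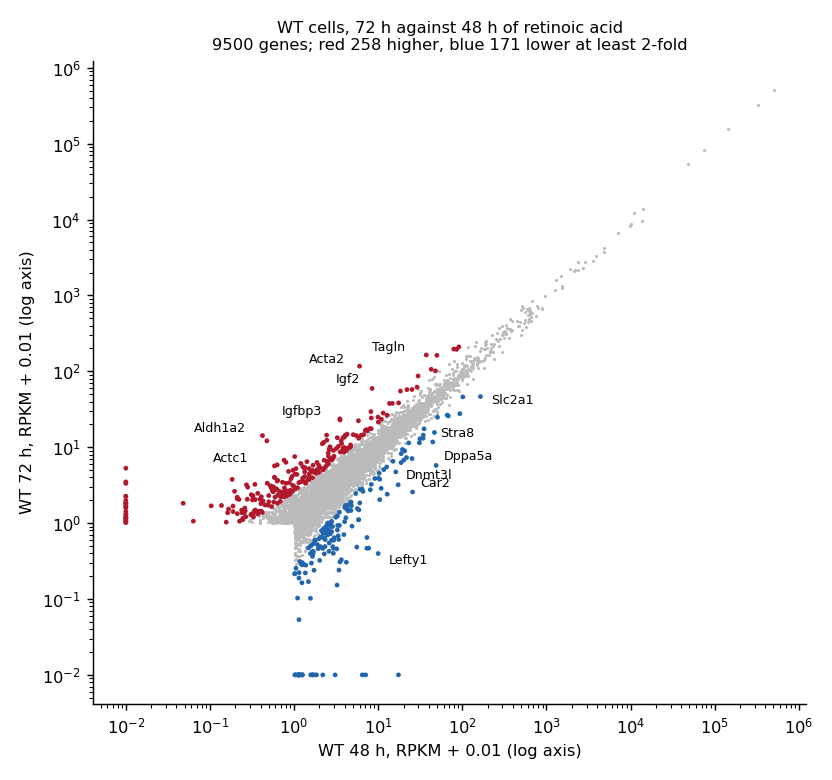
RPKM of each of the 9500 genes in WT cells at 48 h (x) and at 72 h (y), both with 0.01 added and on log axes; red points are at least 2-fold higher at 72 h and blue points at least 2-fold lower, after scaling. Acta2 lies far above the body of points at 5.99 and 117 RPKM, Lefty1 far below it at 9.98 and 0.387 RPKM, and the lines of points at 0.01 are genes with no reads in 1 column.

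Smooth-muscle and contractile genes stood higher at 72 h, with smooth-muscle actin first. Acta2 (ENSMUSG00000035783, chr19:34241090-34255590 in GRCm38), which encodes smooth-muscle actin, was at 0.391, 0.280, 5.99 and 117 RPKM at 0, 24, 48 and 72 h. Its level at 72 h was 19.2-fold higher than at 48 h (counting interval 17.0 to 21.8), the largest upward log2 change of the protein-coding genes with at least 5 RPKM (4.15). This rank rests on the 0.5 RPKM added, since Aldh1a2 and Ecm1 had larger folds of scaled RPKM. Tagln (ENSMUSG00000032085, chr9:45929619-45936058), the actin-bundling protein transgelin, was at 0.439, 1.80, 37.3 and 164 RPKM at 0, 24, 48 and 72 h and so stood 4.34-fold higher (4.10 to 4.60) at 72 h. Both genes were already above their 24 h level at 48 h. Cnn1, calponin of smooth muscle, went from 1.01 to 7.53 RPKM and was 7.37-fold higher (5.61 to 9.83). Myl9, the regulatory myosin light chain of smooth muscle, went from 3.83 to 13.4 RPKM, and Cald1, caldesmon, went from 3.53 to 8.63 RPKM. More widely used cytoskeletal genes differed by less in proportion and, in part, at higher levels. Flna, the actin cross-linker filamin A, was at 48.0 and 101 RPKM at 48 and 72 h, Tpm1, tropomyosin, at 29.0 and 62.0 RPKM and Cnn2 at 17.5 and 38.3 RPKM, each a little over 2-fold higher at 72 h.

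Of the 26 contractile genes in the table, 22 were kept. Of these, 9 were at least 2-fold higher at 72 h and 0 lower, against 2.72% and 1.80% of all kept genes. The median log2 change of the 22 was 0.85, against 0.01 over all kept genes. Of the 9 higher genes 1, Lmod1, was under 1 RPKM at 48 h and was kept only through the 72 h column, as its level went from 0.410 to 1.37 RPKM. The other 8 were above 1 RPKM at both times. Vcl, vinculin of focal adhesions, was at 22.5 and 32.0 RPKM, and Cnn3 at 60.6 and 70.2 RPKM, and neither reached 2-fold. The sarcomeric actins Actc1 and Acta1, of heart and skeletal muscle, went from 0.575 to 5.66 RPKM and from 0.790 to 6.31 RPKM. Reads of the actin genes Acta1, Acta2, Actc1 and Actg2 may be shared between near-identical copies, so the levels of the low members are uncertain. Of the cardiac and skeletal muscle markers 3 of 20 were kept, and Myl7, an atrial light chain, was at 2.40 and 3.72 RPKM. SRF itself and its partners differed by less than 2-fold, with 0 of 5 kept genes called. Srf was at 2.70 and 3.33 RPKM, and the myocardin-related coactivators Mrtfa and Mrtfb were at 0.701 and 1.15 RPKM and at 2.27 and 2.94 RPKM. Among 17 kept Hippo pathway targets and factors 1 was at least 2-fold higher, the receptor tyrosine kinase Axl at 1.34 and 5.37 RPKM, and 0 were lower.

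Promoter sequences are shown for the actin and contractile genes because several of these genes were higher together. The 250 bases before the RefSeq start site (GRCm38.p6) are printed 5′ to 3′ on the gene's strand in lower case. Capitals mark an exact match to the CArG box, the 10-base SRF motif, searched on both strands. The search covered windows from 250 bases before to 50 bases after the start.
Acta1, chr8:123894776-123895025, minus strand: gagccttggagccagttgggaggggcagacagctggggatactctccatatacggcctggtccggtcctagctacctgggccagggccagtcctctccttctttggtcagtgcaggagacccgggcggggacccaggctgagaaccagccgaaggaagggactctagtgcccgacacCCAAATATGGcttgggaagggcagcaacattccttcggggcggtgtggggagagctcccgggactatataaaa
Actc1, chr2:114052876-114053125, minus strand: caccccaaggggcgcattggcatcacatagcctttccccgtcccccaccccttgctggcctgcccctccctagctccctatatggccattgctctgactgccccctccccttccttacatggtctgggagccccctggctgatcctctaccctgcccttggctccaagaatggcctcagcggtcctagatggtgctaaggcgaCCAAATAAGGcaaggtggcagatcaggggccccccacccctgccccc
Myl9, chr2:156775214-156775463, plus strand: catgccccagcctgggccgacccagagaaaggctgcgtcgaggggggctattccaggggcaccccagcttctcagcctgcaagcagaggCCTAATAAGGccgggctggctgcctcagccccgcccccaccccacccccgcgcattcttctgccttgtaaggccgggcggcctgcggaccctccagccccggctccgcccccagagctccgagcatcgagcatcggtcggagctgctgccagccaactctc
Cnn2, chr10:79988350-79988599, plus strand: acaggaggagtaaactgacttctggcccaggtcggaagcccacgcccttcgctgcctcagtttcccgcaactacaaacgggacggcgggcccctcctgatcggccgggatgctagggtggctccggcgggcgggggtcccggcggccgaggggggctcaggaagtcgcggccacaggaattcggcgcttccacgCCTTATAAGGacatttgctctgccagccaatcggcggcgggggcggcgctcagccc
Acta2, chr19:34255374-34255623, minus strand: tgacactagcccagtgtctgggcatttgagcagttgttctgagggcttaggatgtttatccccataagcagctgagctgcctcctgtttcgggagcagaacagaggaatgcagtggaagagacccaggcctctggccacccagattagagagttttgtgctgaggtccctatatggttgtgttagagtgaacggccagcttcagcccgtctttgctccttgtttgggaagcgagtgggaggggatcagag
The box begins 73 bases before the start in Acta1, 47 in Actc1, 161 in Myl9 and 56 in Cnn2, and Acta2 has no exact match in this window. The printed Acta2 sequence does hold ccctatatgg and ccttgtttgg. Each has a c or g among its middle letters, where the marked boxes have only A and T. Near matches of this kind were not counted, so Acta2 cannot be said to lack a CArG-like box. Of all 32851 RefSeq windows 535 (1.63%) hold a match, and of the 6921 kept genes with a window 108 (1.56%) do. Of the 142 genes at least 2-fold higher with a window 8 (5.63%) do, namely Igf2, Actc1, Acta1, Pdgfc, Myl9, Cnn2, Anxa5 and Robo1, and of the 81 lower genes 0 do. Of the 21 contractile genes with a window 4 have a match, Myl9, Cnn2, Myl6 and Vcl. Tagln had no window and so was not searched. These are matches of letters within a short window and are given as a description, without a test.

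Genes of the extracellular matrix were called in the upward direction in the fibrillar collagen and basement membrane lists, where 2.72% of all kept genes were higher. Among fibrillar collagens and fibroblast matrix genes, 20 of 32 in the table were kept, with 7 at least 2-fold higher, 0 lower and a median of 0.89. Of these 7, 4 were under 1 RPKM at 48 h and had to differ to be kept. Col3a1, the fibrillar collagen of extensible tissues, had no reads at 0 and 24 h and was at 0.174 RPKM at 48 h and 3.76 RPKM at 72 h. Fn1, fibronectin, was at 13.4, 11.9, 6.24 and 14.4 RPKM at 0, 24, 48 and 72 h, so its 72 h level was 2.27-fold higher than at 48 h. The receptor Pdgfra, a marker of mesenchymal and primitive endoderm cells, went from 0.300 to 2.36 RPKM. Tgfbi, a secreted adhesion protein, went from 0.619 to 3.57 RPKM. Among basement membrane genes 14 of 16 were kept, 5 were higher, 0 lower, and the median was 0.88. Sparc, a collagen-binding matrix protein, went from 14.7 to 37.8 RPKM and the X-linked collagen IV chains Col4a5 and Col4a6 went from 0.614 to 2.77 RPKM and from 0.314 to 1.31 RPKM. The laminin chains Lamb1 and Lamc1, at 17.2 and 19.8 RPKM and at 15.0 and 21.8 RPKM, stayed within 2-fold. Of 23 collagen folding and secretory genes, all kept, 1 was higher. This was Fkbp10, a collagen chaperone, at 2.98 and 7.61 RPKM. A single call does not set this list apart from the share over all kept genes. The collagen chaperone Serpinh1 was at 40.1 and 76.1 RPKM, short of 2-fold. Ecm1, a secreted glycoprotein of the matrix, came after Acta2 and Aldh1a2 among the upward log2 changes. It was at 0.0614, 0.156, 0.465 and 12.1 RPKM at 0, 24, 48 and 72 h, 25.7-fold higher (17.8 to 38.6) at 72 h than at 48 h.

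Mesoderm and mesenchyme transcription factors had the highest median of the lists with at least 5 kept genes, 1.18, but only 15 of 45 were kept. Of the 15, 8 were at least 2-fold higher and 1 lower, against 2.72% and 1.80% of all kept genes, and 5 of the 8 were under 1 RPKM at 48 h. Twist1, a factor of mesenchyme and neural crest, was at 0.216, 1.02, 2.63 and 9.37 RPKM at 0, 24, 48 and 72 h and was 3.52-fold higher (2.83 to 4.40). Wt1, a factor of mesothelium, kidney and gonad, was at 0.363, 1.25, 1.07 and 4.37 RPKM at 0, 24, 48 and 72 h. The heart and limb factor Hand2 went from 0.525 to 2.89 RPKM and Tbx2 went from 0.201 to 2.09 RPKM. Msx2 went from 1.19 to 3.50 RPKM, whereas Msx1 was at 7.64 and 5.29 RPKM and Meox1, a factor of somites, went the other way from 2.69 to 0.713 RPKM. Of the factors named here, Twist1 had the highest level at 72 h. Among endoderm transcription factors 3 of 18 were kept. Gata6 went from 0.747 to 2.23 RPKM, while Foxa2 and Foxa1 were at 5.22 and 4.01 RPKM and at 2.60 and 2.81 RPKM.

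Simple epithelial keratins were also higher, and Krt18 at 72 h was above Tagln and Acta2. Krt8 and Krt18, the keratin pair of simple epithelia, were at 49.9 and 163 RPKM and at 91.1 and 210.0 RPKM at 48 and 72 h, and were 3.21-fold higher (3.06 to 3.37) and 2.27-fold higher (2.18 to 2.37). Krt19 was at 13.6 and 37.7 RPKM and Krt7 at 1.03 and 2.81 RPKM. Of 29 keratin and simple epithelial genes 23 were kept, of which 6 were at least 2-fold higher and 0 lower, against 2.72% and 1.80% of all kept genes. The median of the 23 was 0.68, and all 6 higher genes were above 1 RPKM at 48 h. The other 2 were Perp, a desmosome and p53 target gene, at 3.66 and 11.2 RPKM, and Anxa2 at 7.22 and 17.0 RPKM. Cadherin genes differed from each other in their course. Cdh3, P-cadherin, was at 1.79, 0.638, 2.25 and 11.6 RPKM at 0, 24, 48 and 72 h and was 5.08-fold higher (4.40 to 5.89). E-cadherin, Cdh1, was at 22.0, 22.6, 24.1 and 24.9 RPKM at 0, 24, 48 and 72 h, and its fold of 1.02 had a counting interval of 0.967 to 1.07. N-cadherin, Cdh2, was at 0.264, 0.460, 4.15 and 4.64 RPKM at 0, 24, 48 and 72 h, with its step between 24 and 48 h. Vim, the intermediate filament vimentin of mesenchymal cells, was at 29.8 and 86.9 RPKM, 2.88-fold higher at 72 h. Of 23 cadherin switch and mesenchymal genes 14 were kept, with 3 higher (Cdh3, Twist1 and Vim), 0 lower and a median of 0.56. Upk3b, a uroplakin of urothelium and mesothelium, went from 0.620 to 5.84 RPKM.

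**Figure D2:**
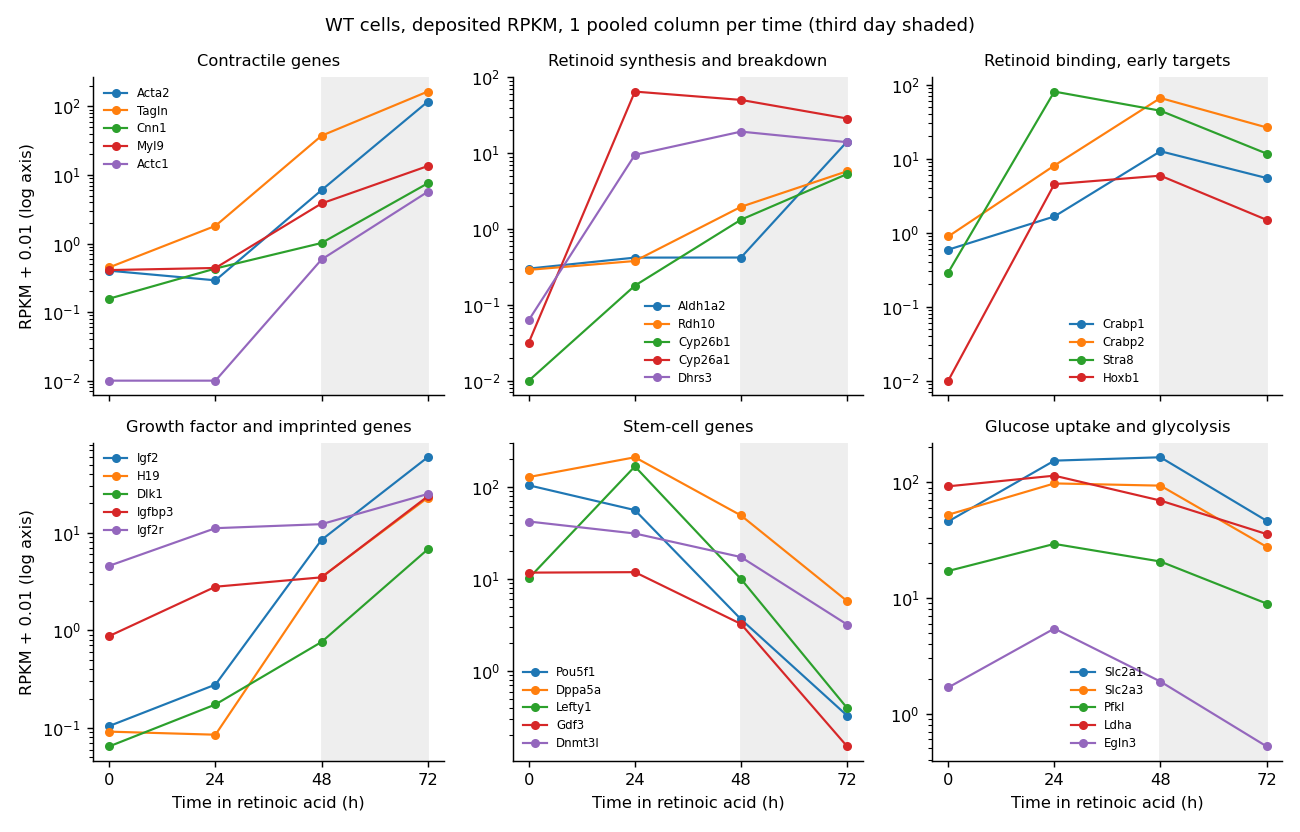
RPKM, with 0.01 added and on a log axis, of 29 named genes in WT cells at 0, 24, 48 and 72 h, in 6 panels by role; each point is 1 pooled column and the interval from 48 to 72 h is shaded. Acta2 and Aldh1a2 climb most steeply in the shaded interval, while Stra8, Hoxb1 and Lefty1 had their high level earlier and stand lower at 72 h.

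Growth factor and imprinted genes were among those furthest above their 48 h level. Igf2 (ENSMUSG00000048583, chr7:142650766-142666816), the imprinted fetal growth factor, was at 0.0947, 0.268, 8.46 and 59.5 RPKM at 0, 24, 48 and 72 h, which made it 6.94-fold higher (6.53 to 7.38) at 72 h than at 48 h. H19, the non-coding RNA from the same imprinted locus, was at 0.0816, 0.0752, 3.51 and 22.8 RPKM at 0, 24, 48 and 72 h and 6.42-fold higher (5.54 to 7.46). Dlk1, an imprinted transmembrane protein of progenitor cells, went from 0.751 to 6.75 RPKM, and Rian and Mirg, non-coding RNAs of the same imprinted cluster, went from 10.0 to 21.4 RPKM and from 6.37 to 11.4 RPKM. Igf2r, the receptor that clears Igf2, was at 4.59, 11.2, 12.3 and 24.99 RPKM at 0, 24, 48 and 72 h, 2.01-fold higher by scaled RPKM but short of the 2-fold call with the pseudocount (log2 change 0.98). Igfbp3, which binds insulin-like growth factors outside the cell, was at 0.866, 2.79, 3.49 and 23.6 RPKM at 0, 24, 48 and 72 h. Of 32 imprinted genes in the table, 22 were kept, with 4 higher (Igf2, H19, Dlk1 and Rian), 0 lower and a median of 0.60. The shares over all kept genes were 2.72% higher and 1.80% lower. Peg10 and Grb10, also imprinted, had similar levels at 48 and 72 h. Peg10 was at 16.3, 81.3, 307 and 311 RPKM at 0, 24, 48 and 72 h, and Grb10 was at 6.48, 17.9, 59.0 and 57.0 RPKM at 0, 24, 48 and 72 h. Hspb8, a small heat shock protein with high levels in muscle, went from 2.43 to 14.4 RPKM, while of 17 kept stress and unfolded protein genes 0 were 2-fold apart.

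The retinoid pathway held genes called in both directions. Aldh1a2 (ENSMUSG00000013584, chr9:71215789-71296243), the retinaldehyde dehydrogenase that makes retinoic acid in mesoderm, was low at 0.291, 0.410 and 0.411 RPKM up to 48 h and stood at 14.2 RPKM at 72 h. The 72 h level was 34.1-fold higher (22.6 to 54.2) than that at 48 h. The step before it in synthesis is made by Rdh10, a retinol dehydrogenase, which went from 1.95 to 5.78 RPKM. Aldh1a1, a related dehydrogenase, was at 2.19 and 4.02 RPKM. The 2 breakdown enzymes went opposite ways. Cyp26b1 was at 0, 0.169, 1.32 and 5.31 RPKM at 0, 24, 48 and 72 h, 3.97-fold higher at 72 h, whereas Cyp26a1 had its highest level at 24 h and was 1.78-fold lower (1.67 to 1.91) at 72 h than at 48 h, short of the 2-fold call. The binding proteins Crabp2 and Crabp1, which carry retinoic acid in the cell, were lower, from 66.1 to 26.5 RPKM and from 12.6 to 5.47 RPKM, after a higher level at each time up to 48 h than at the time before. Stra6, the retinol uptake receptor, was at 5.24 and 2.78 RPKM. Of 17 genes of retinoid metabolism and binding 14 were kept, with 3 higher, 2 lower and a median of -0.02.

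Of the retinoid and COUP receptors, Nr2f2 alone met the 2-fold call. Rarb was at 0.0255, 2.40, 9.18 and 8.84 RPKM at 0, 24, 48 and 72 h, Rara at 6.19 and 7.07 RPKM, Rarg at 2.39 and 1.96 RPKM and Rxra at 3.74 and 3.99 RPKM at 48 and 72 h. The counting interval of the Rarb fold includes no change (1.05-fold lower, 0.947 to 1.17). Of 10 kept receptor genes 1 was called, the COUP receptor Nr2f2. It was at 0.00796, 0.00734, 1.86 and 6.29 RPKM at 0, 24, 48 and 72 h. Its relative Nr2f1 was at 0.00815, 0.0901, 1.89 and 4.30 RPKM at 0, 24, 48 and 72 h. By scaled RPKM, Nr2f1 was 2.24-fold higher (1.92 to 2.64) at 72 h than at 48 h. It was short of the call with the pseudocount (log2 change 0.98). Nr2f6, of the same group, was at 8.36 and 7.76 RPKM. Among 37 Hox genes 16 were kept, with 0 higher and 2 lower. Hoxb1, an anterior gene among the first to answer to retinoic acid, was at 0, 4.52, 5.89 and 1.48 RPKM at 0, 24, 48 and 72 h. Its level was 4.02-fold lower (3.18 to 5.13) at 72 h than at 48 h. Among more posterior genes Hoxa5 went from 7.24 to 11.1 RPKM and Hoxb9 from 2.51 to 3.40 RPKM, whereas Hoxb6 went from 3.68 to 1.75 RPKM, and the median of the 16 was 0.08. Stra8, a retinoid-induced gene of germ cells entering meiosis, was at 0.280, 80.7, 44.5 and 11.7 RPKM at 0, 24, 48 and 72 h. The Hox cofactors had 0 of 8 kept genes called in either direction, with Meis1 at 5.27 and 6.43 RPKM.

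The promoters of Cyp26a1 and Rarb are shown because both are direct targets of the receptors and took different courses on the third day. Capitals mark a DR5 retinoic acid response element, searched on both strands, and the 250 bases before the RefSeq start site are printed 5′ to 3′ on the gene's strand (GRCm38.p6).
Cyp26a1, chr19:37697558-37697807, plus strand: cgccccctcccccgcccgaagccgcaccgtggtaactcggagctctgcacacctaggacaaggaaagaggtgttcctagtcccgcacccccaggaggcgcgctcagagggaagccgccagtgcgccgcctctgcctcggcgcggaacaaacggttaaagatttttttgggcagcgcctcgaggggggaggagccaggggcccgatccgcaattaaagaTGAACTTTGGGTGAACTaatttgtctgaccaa
Rarb, chr14:16575477-16575726, minus strand: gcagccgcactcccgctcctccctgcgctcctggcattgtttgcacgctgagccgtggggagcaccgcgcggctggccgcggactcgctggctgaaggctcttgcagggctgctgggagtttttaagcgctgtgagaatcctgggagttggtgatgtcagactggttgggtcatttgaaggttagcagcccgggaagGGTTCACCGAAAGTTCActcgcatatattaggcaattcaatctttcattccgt
The match begins 32 bases before the start in Cyp26a1 and 53 in Rarb. Of the 32851 windows 32 (0.0974%) hold a match, and of the 6921 kept genes with a window 3 do, the third being Blvrb at 3.60 and 2.70 RPKM at 48 and 72 h. Of the 142 higher and 81 lower genes with a window, 0 hold one, which says only that these letters are not in these windows.

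Genes of pluripotency were lower at 72 h in most kept cases. Of 37 such genes in the table, 26 were kept, of which 16 were at least 2-fold lower and 1 higher, against 1.80% and 2.72% of all kept genes. The median of the 26 was -1.15, against 0.01 over all kept genes. Of the 16, 8 were under 1 RPKM at 72 h, so they were kept only through the 48 h column. Pou5f1 (ENSMUSG00000024406, chr17:35506018-35510772), the central factor of the network, was at 3.64 RPKM at 48 h and 0.319 RPKM at 72 h, 11.6-fold lower (7.22 to 19.6), and was already far below its 0 h level at 48 h. Nanog was at 62.1, 26.6, 2.71 and 0.894 RPKM at 0, 24, 48 and 72 h. Dppa5a, an RNA-binding protein of stem cells, was at 128, 209, 48.9 and 5.75 RPKM at 0, 24, 48 and 72 h and so was 8.62-fold lower (6.95 to 10.8) at 72 h than at 48 h. Gdf3, a TGF-beta family ligand of stem cells, went from 3.23 to 0.142 RPKM. Sox2 and Sall4, which other progenitors use as well, were at 8.28 and 3.23 RPKM and at 10.3 and 4.52 RPKM. Lin28a, which blocks maturation of let-7 microRNAs, had its highest level at 48 h, at 35.4, 40.1, 68.2 and 25.8 RPKM at 0, 24, 48 and 72 h. The gene that went the other way was Tbx3, at 1.54, 1.21, 0.9496 and 3.14 RPKM at 0, 24, 48 and 72 h, which also serves in mesoderm and limb. Stat3, which carries the LIF signal, was at 3.73, 1.44, 1.79 and 4.09 RPKM at 0, 24, 48 and 72 h. The summed level of 6 markers of undifferentiated stem cells was 58.2 RPKM at 48 h and 7.97 RPKM at 72 h, and all 4 that were kept were at least 2-fold lower. Among these 4, Pou5f1 and Nanog were under 1 RPKM at 72 h and were kept only through the 48 h column. This sum is read from the compared columns and is no separate check.

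Formative and primed markers had 9 of 19 kept, with 2 lower (Etv5 from 5.83 to 1.10 RPKM and Wnt8a from 1.13 to 0.0433 RPKM), 0 higher and a median of -0.64. Dnmt3l (ENSMUSG00000000730), the cofactor of the de novo DNA methyltransferases, was at 42.0, 31.1, 17.3 and 3.19 RPKM at 0, 24, 48 and 72 h, 5.49-fold lower (4.79 to 6.31). The methyltransferases themselves differed by less than 2-fold, as Dnmt3b was at 5.72 and 2.99 RPKM, Dnmt3a at 1.63 and 2.77 RPKM and Dnmt1 at 13.3 and 15.8 RPKM. Dnmt3l was the 1 gene called of 11 kept DNA methylation genes. Of the Polycomb genes 0 were called in either direction, among 12 kept H3K27 enzymes and PRC2 subunits and 20 kept PRC1 subunits, with Ezh2 at 5.23 and 4.49 RPKM and Cbx2 at 5.54 and 6.71 RPKM. Epop, a PRC2 partner high in stem cells, was nearest to the call, at 30.5, 11.3, 13.8 and 6.81 RPKM at 0, 24, 48 and 72 h. Of 17 genes of the 2-cell-like state, active in the earliest embryo, 8 were kept and 3 were at least 2-fold lower, with a median of -0.98. All 3 were under 1 RPKM at 72 h, so they were kept only through the 48 h column, and Tcstv3, under 1 RPKM at both times, was higher at 0.159 and 0.668 RPKM. Zscan4f was at 0.0797, 0.529, 2.28 and 0.623 RPKM at 0, 24, 48 and 72 h. Zscan4 and Usp17l genes are families of near-identical copies, so the split of reads among them is uncertain.

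The TGF-beta and Wnt lists held genes called in both directions. In the TGF-beta, Nodal and BMP list 22 of 41 were kept, with 3 higher and 3 lower and a median of 0.32. The 3 lower genes are of the Nodal loop. Lefty1, a secreted Nodal inhibitor, was at 10.2, 166, 9.98 and 0.387 RPKM at 0, 24, 48 and 72 h, 26.1-fold lower (16.3 to 44.5) at 72 h than at 48 h, the largest downward change of the protein-coding genes with at least 5 RPKM. Nodal was at 8.54, 13.9, 4.32 and 1.52 RPKM at 0, 24, 48 and 72 h. Lefty2, which can share reads with Lefty1, went from 1.47 to 0.159 RPKM. The 3 higher genes were Ltbp1, which stores TGF-beta in the matrix, from 0.961 to 4.96 RPKM, the decoy receptor Bambi, from 1.67 to 4.69 RPKM, and the ligand Bmp4, from 0.745 to 2.23 RPKM. In the Wnt list 27 of 49 were kept, with 4 higher and 2 lower and a median of 0.04, whose sign turns when the columns are scaled to protein-coding reads. The secreted Wnt inhibitors Sfrp1 and Sfrp5 went opposite ways. Sfrp1 went from 2.61 to 9.38 RPKM and Sfrp5 was at 0.143, 1.90, 7.70 and 0.458 RPKM at 0, 24, 48 and 72 h, a fold of 17.1 (11.2 to 27.3) in the lower direction. The ligands Wnt6, Wnt11 and Wnt2b were higher, at 1.33 and 4.10 RPKM, at 0.178 and 1.41 RPKM and at 0.215 and 1.05 RPKM. In the FGF list 12 of 25 were kept, with 0 higher and 2 lower, the ERK target Etv5 and the ligand Fgf15 at 2.32 and 0.481 RPKM, and the ERK phosphatase Dusp6 was at 26.6 and 14.7 RPKM. In the Hedgehog and Notch list 13 of 28 were kept, with 1 lower, the Notch ligand Dll1 at 1.69 and 0.413 RPKM, and 0 higher.

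Genes of glucose uptake were lower on the third day. Slc2a1 (ENSMUSG00000028645, chr4:119108711-119137983), the main glucose transporter of embryonic cells, was at 45.8, 154, 164 and 46.5 RPKM at 0, 24, 48 and 72 h and 3.58-fold lower (3.45 to 3.72) at 72 h than at 48 h. Slc2a3, the high-affinity neuronal and stem-cell transporter, was at 52.4, 97.7, 93.4 and 27.7 RPKM at 0, 24, 48 and 72 h, 3.42-fold lower (3.32 to 3.53). Pfkl, the liver form of phosphofructokinase, was at 17.1, 29.3, 20.6 and 8.94 RPKM at 0, 24, 48 and 72 h, and Egln3, a hypoxia-induced prolyl hydroxylase, was at 1.67, 5.43, 1.88 and 0.512 RPKM at 0, 24, 48 and 72 h. Of 22 glycolysis and hypoxia genes in the table, 19 were kept, of which these 4 were at least 2-fold lower and 0 higher. The median of the 19 was -0.40, and over all kept genes 1.80% were lower and 2.72% higher. A lower level was seen in 17 of the 19, though not at 2-fold in the other 13 of these. Ldha, lactate dehydrogenase, was at 92.2, 114, 69.4 and 35.7 RPKM at 0, 24, 48 and 72 h. Hk2 and Gpi1 were at 11.6 and 11.3 RPKM and at 16.03 and 14.7 RPKM, and Vegfa, the hypoxia-induced angiogenic factor, was higher at 1.601 and 3.13 RPKM. The 32 kept cytosolic ribosomal protein genes, which have many processed copies that can share reads, had a median of -0.31, with all 32 below 0 and 0 called. Car2, carbonic anhydrase, was at 6.95, 30.0, 25.6 and 2.56 RPKM at 0, 24, 48 and 72 h, and the uridine phosphorylase gene Upp1 at 42.2, 67.9, 7.34 and 0.637 RPKM at 0, 24, 48 and 72 h. The metallothioneins Mt1 and Mt2, which bind zinc and copper and can share reads, went from 25.2 to 7.08 RPKM and from 10.8 to 2.86 RPKM.

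The cell cycle inhibitors Cdkn1a, Cdkn2a and Cdkn2b were at least 2-fold higher, while 0 genes of replication or mitosis were called. Cdkn1a, the p53-induced inhibitor p21, was at 1.85, 3.35, 4.04 and 14.2 RPKM at 0, 24, 48 and 72 h and 3.47-fold higher (2.99 to 4.04). Cdkn2a, the locus of p16 and p19Arf, was at 0.496, 1.25, 3.18 and 9.64 RPKM at 0, 24, 48 and 72 h, and Cdkn2b, which encodes p15 beside it, was at 0.0834, 0.359, 1.04 and 5.21 RPKM at 0, 24, 48 and 72 h. These were the 3 higher of 19 kept G1 cyclins and inhibitors, with 0 lower and a median of 0.17. The inhibitors Cdkn1b, Cdkn1c and Cdkn2d were at 4.11 and 4.76 RPKM, at 22.3 and 27.8 RPKM and at 1.94 and 2.68 RPKM, short of 2-fold. Among 24 kept p53 genes and targets 4 were higher and 0 lower, with a median of 0.48. For both lists the shares over all kept genes were 2.72% higher and 1.80% lower. The kinase Plk2 led the p53 targets at 5.82 and 22.3 RPKM. Not every target followed, since Bax was at 77.0 and 67.1 RPKM. Of 18 kept genes of the Bcl2 family and apoptosis 1 was called, Bik, lower at 1.201 and 0.281 RPKM, and Bbc3 (Puma) was at 1.65 and 2.996 RPKM. All 36 replication genes were kept, with 0 called and a median of -0.23, and 31 of 35 mitosis genes were kept, with 0 called and a median of -0.17. The lowest changes in these lists were Gins1 at 5.95 and 3.72 RPKM and Ccnb2, cyclin B2, at 36.2 and 22.3 RPKM. Among immediate early genes 1 of 12 kept was higher, Fosl2 at 1.26 and 3.90 RPKM, and Jun was at 7.57 and 12.9 RPKM.

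**Figure D3:**
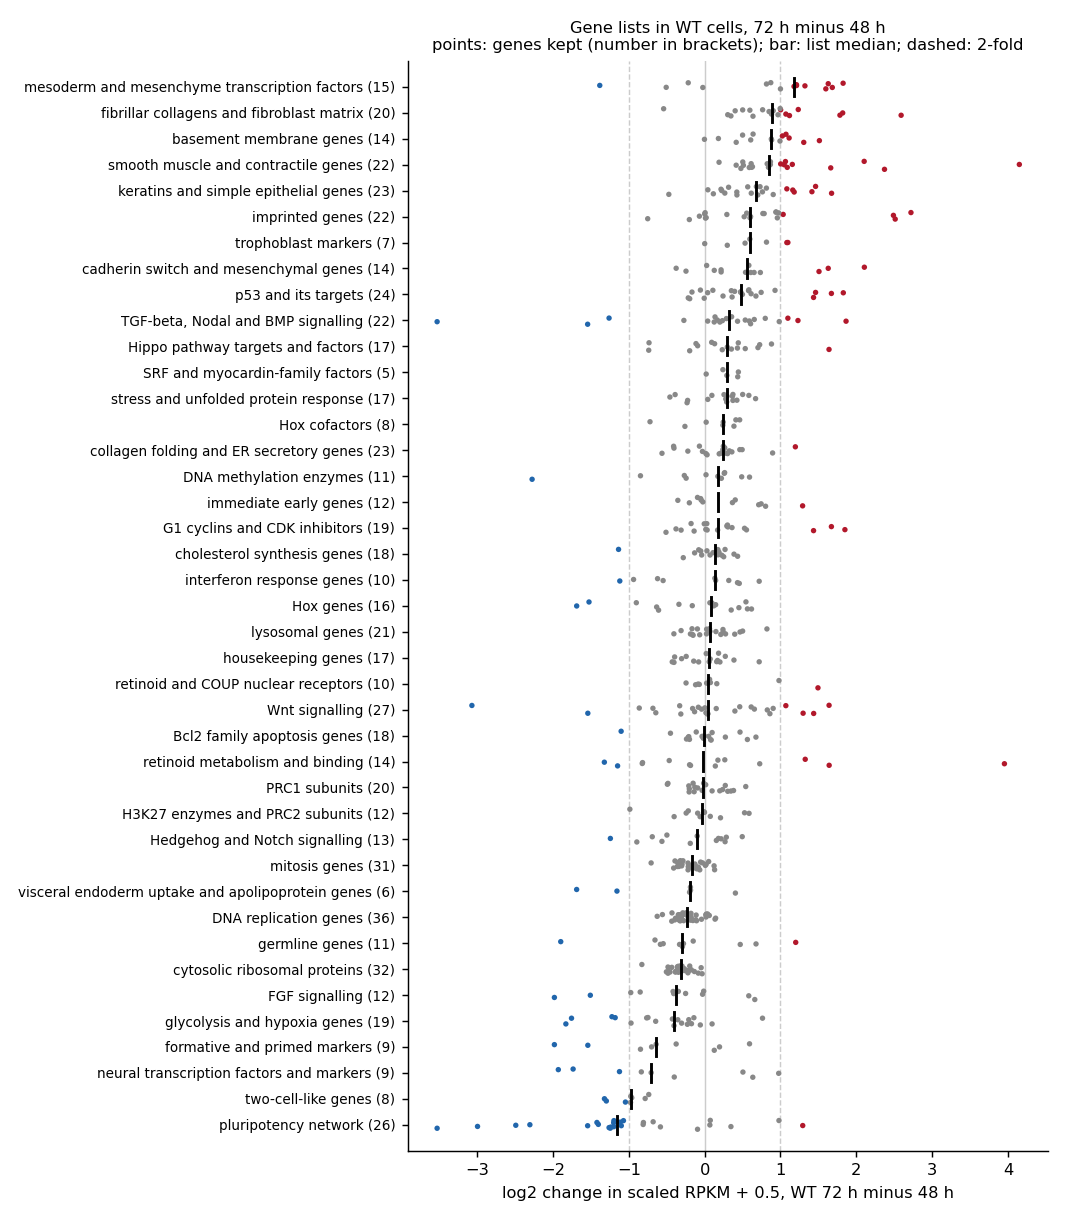
Log2 change in WT cells from 48 to 72 h of each kept gene of the lists with at least 5 kept genes; points are genes, black bars are list medians, red and blue points are at least 2-fold higher and lower, and dashed lines mark 2-fold. Mesoderm factors have a median of 1.18 and pluripotency genes one of -1.15, and genes kept only through their higher column had to differ.

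Markers of other cell types were read as a check on what these cells are. Of 6 smooth-muscle-like markers 4 were kept and 3 were at least 2-fold higher, namely Acta2, Tagln and Cnn1. The summed level of the 6 went from 46.2 to 292 RPKM, of which Tagln gave 164 RPKM at 72 h. Acta2 and Tagln are also markers given for the third day, and the sum is read from the compared columns. It is therefore no separate check. Smtn was kept but not called (log2 change 0.42), and Myh11 and Actg2 were under 1 RPKM at both times. The labels name embryonic stem cells in treatment and no smooth muscle, and the part of other cell types in these sums was not tested. Parietal-endoderm-like markers summed to 25.4 RPKM at 48 h and 53.8 RPKM at 72 h, of which Sparc gave 37.8 RPKM, with 1 of 4 kept markers higher. Fibroblast or feeder markers summed to 1.88 and 6.72 RPKM, led by Col3a1, and the cultures were grown on gelatin. Neural-like markers summed to 11.2 and 9.63 RPKM, with Olig2 at 0 in both columns, where 3 reads would have been 0.0498 and 0.0466 RPKM. Of 42 neural factors and markers 9 were kept, with 3 lower, 0 higher and a median of -0.71. Sox1, the earliest neural plate factor, went from 2.59 to 0.415 RPKM, and Gbx2 from 4.87 to 0.901 RPKM, while the progenitor filament Nes was at 2.06 and 4.63 RPKM. Visceral-endoderm-like markers summed to 2.10 and 1.55 RPKM, endothelial ones to 1.37 and 1.19 RPKM and trophoblast-like ones to 1.81 and 3.68 RPKM. Blood markers summed to 0.0300 and 0 RPKM, with Gata1 and Hbb-bh1 at 0 in both columns, where 3 reads would have been 0.0498 and 0.0466 RPKM for Gata1 and 0.198 and 0.185 RPKM for Hbb-bh1.

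The remaining lists held few calls in number, but some of them kept few genes. Over all kept genes the shares were 2.72% higher and 1.80% lower. Among visceral endoderm uptake and apolipoprotein genes 6 of 22 were kept, with 2 lower, the uptake receptor Lrp2 at 15.0 and 6.52 RPKM and Apoe at 16.2 and 4.72 RPKM. Of 7 kept trophoblast genes 2 were higher, Bmp4 and Krt7. Of 11 kept germline genes 1 was higher, Rhox6 at 0.440 and 1.72 RPKM, and 1 lower, Stra8. Of 10 kept interferon response genes 1 was lower, Ifitm1 at 4.32 and 1.73 RPKM. Of 21 kept lysosomal genes 0 were called, though Ctsd, cathepsin D, was at 46.6 and 83.9 RPKM. The 1 kept of 17 endothelial genes, Egfl7, was at 1.21 and 0.845 RPKM, and of 11 blood genes 0 were kept. Of 17 kept housekeeping genes 0 were called, with a median of 0.06. Actb was at 519.7 and 689 RPKM and Eef1a1 at 890.1 and 671 RPKM.

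Non-coding genes made up part of the calls. The 5 other genes longer than 200 bases that stood furthest above their 48 h level were H19, Rian, Gm24514, Mirg and AU020206, of which H19 and Rian passed 2-fold. Gm24514 was at 16.3 and 29.0 RPKM and AU020206 at 3.39 and 6.11 RPKM. The 5 furthest below it were Lncenc1, Gm16344, Gm12260, A530040E14Rik and Terc, and all 5 passed 2-fold. Lncenc1, a non-coding RNA of embryonic stem cells, was at 51.7, 82.8, 46.6 and 15.6 RPKM at 0, 24, 48 and 72 h. Gm16344, Gm12260 and A530040E14Rik went from 34.2 to 13.1 RPKM, from 10.4 to 3.77 RPKM and from 9.10 to 3.86 RPKM. Terc, the RNA template of telomerase, was at 110.2, 181, 102 and 46.1 RPKM at 0, 24, 48 and 72 h. Gm16344 and A530040E14Rik are annotated as antisense genes, and their reads cannot be told apart from those of the opposite strand, since no source used here says that counting was by strand. Over all kept genes 2.72% were higher and 1.80% lower. Long non-coding RNAs numbered 115 kept, with 5 higher and 6 lower. Of 543 small structural and regulatory RNA genes 54 were higher and 47 lower. Those called had a median of only 6 reads in their higher column, and they are part of the 258 higher and 171 lower genes. RNA under 200 bases had been removed before sequencing, and the called miRNA genes, 24 higher and 27 lower of 129, had a median of 5 reads in their higher column, so no miRNA is named.

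Most genes that were higher at 72 h had been low at 0 and 24 h. The 258 higher genes had median levels of 0.174, 0.396, 0.903 and 3.61 RPKM at 0, 24, 48 and 72 h, and 159 of them (61.6%) were under 1 RPKM at both 0 and 24 h, against 13.7% of all kept genes. Of the 258, 135 were under 1 RPKM at 48 h and entered the comparison through the 72 h column alone. The 171 lower genes had medians of 2.18, 4.75, 2.92 and 0.669 RPKM, and 109 of them were under 1 RPKM at 72 h. Of the 171, 41 (24.0%) had been at least 2-fold higher at 24 h than at 0 h, against 4.46% of all kept genes, as in Lefty1, Stra8 and Slc2a1. Another 19 of the 171 (11.1%) had been at least 2-fold lower at 24 h than at 0 h, against 2.48% of all kept genes. Both shares thus stood above those of all kept genes. The preceding days held more calls. From 24 to 48 h, 499 genes (5.28%) were higher and 329 (3.48%) lower of 9446, and from 0 to 24 h, 396 (4.51%) were higher and 383 (4.36%) lower of 8790. These earlier comparisons share the 24 h column with each other, and that from 24 to 48 h shares the 48 h column with the third day. In the authors' deposited table, genes are marked as differing between 72 and 0 h, a contrast that shares the 72 h column. The mark is carried by 183 of the 258 higher genes, by 101 of the 171 lower genes and by 2663 of the 9500 kept. Slc2a1, Sfrp5, Rian and Fn1 are among the called genes without a mark in the authors' deposited table.

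The third day in the line labelled Suz12-KO uses columns of its own and gave 284 higher (2.91%) and 148 lower genes (1.52%) of 9752 kept. Of these, 116 higher genes were shared, which is 45.0% of the WT list and 40.8% of the Suz12-KO list. Shared lower genes numbered 57, which is 33.3% of the WT list and 38.5% of the other. Over the 9072 genes kept in both lines, 2.58% were higher and 1.37% lower in Suz12-KO. Among protein-coding genes 109 higher genes were shared (56.5% and 42.1%) and 45 lower genes (39.5% and 42.9%), where 2.88% and 1.17% of all kept protein-coding genes were called in Suz12-KO. The change had the same sign in the line labelled Suz12-KO for 218 of the 258 genes that were higher in WT cells and for 147 of the 171 that were lower, against 71.7% of all kept genes, and 3 of the higher and 2 of the lower genes were at least 2-fold apart the opposite way. The median changes of these genes in Suz12-KO were 0.88 and -0.74. The sign was the same for 189 of the 193 protein-coding genes that were higher in WT cells and for 110 of the 114 that were lower, against 73.3% of all kept protein-coding genes. For these protein-coding sets the median changes in WT cells were 1.30 and -1.32, and in the other line they were 1.06 and -0.84, and choosing the genes on WT values enlarges the WT medians. Acta2 was at 3.72 and 164 RPKM at 48 and 72 h in Suz12-KO, Ecm1 at 0.703 and 18.2 RPKM and Igf2 at 6.80 and 52.7 RPKM. Their log2 changes there were 5.35, 3.94 and 2.95, against 4.15, 3.65 and 2.72 in WT. Aldh1a2 was at 0.412 and 5.66 RPKM, Pou5f1 at 7.27 and 1.35 RPKM and Lefty1 at 7.89 and 1.06 RPKM. With 1 column per group, a difference between the lines could not be tested.

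**Figure D4:**
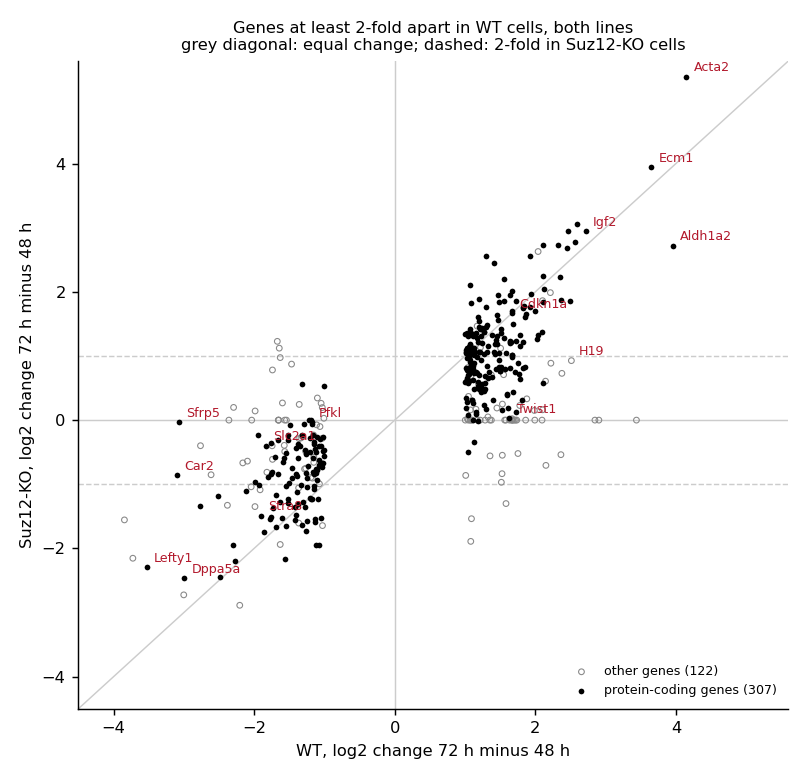
Log2 change from 48 to 72 h in WT cells (x) and in the line labelled Suz12-KO (y) for the 429 genes at least 2-fold apart in WT cells; black points are protein-coding genes, open circles other genes, and the grey diagonal marks equal change. Acta2, Ecm1 and Igf2 lie near or above the diagonal, whereas Sfrp5 at -0.04, Slc2a1 at -0.40 and Twist1 at 0.03 lie near 0 on the Suz12-KO axis.

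The lists kept in WT cells were also read in the other line over the same genes, and genes kept through 1 WT column had to differ in WT cells but not in the other line. The glycolysis and hypoxia genes had a median of -0.40 in WT and 0.00 in Suz12-KO over the same 19 genes. Slc2a1 was at 80.8, 305, 93.0 and 65.8 RPKM in Suz12-KO at 0, 24, 48 and 72 h, so its largest step down lay between 24 and 48 h there. Pfkl was at 20.2 and 18.4 RPKM and Egln3 at 1.11 and 1.04 RPKM at 48 and 72 h. Sfrp5 was at 1.57 and 1.42 RPKM, against 7.70 and 0.458 RPKM in WT. The mesoderm factors had a median of 1.18 in WT and 0.40 in Suz12-KO, where 5 of the 17 kept by that line's own columns were at least 2-fold higher and 1 lower. Twist1 was at 1.71, 8.33 and 7.93 RPKM in Suz12-KO at 24, 48 and 72 h, so its step up lay between 24 and 48 h there. Imprinted genes had medians of 0.60 and 0.06, with H19 at 0.420 and 1.25 RPKM and Rian at 0.0338 and 0.0385 RPKM in Suz12-KO. For genes as low as Rian was there, the 0.5 RPKM added holds the log2 change near 0, and the Suz12-KO median includes them. By its own columns 3 of 18 kept imprinted genes were at least 2-fold higher there, against 4 of 22 in WT, and H19 was 3.19-fold higher by scaled RPKM but short of the call with the pseudocount (log2 change 0.93). Contractile genes had medians of 0.85 and 1.07, and keratin and epithelial genes 0.68 and 0.97. Whether these pairs of medians differ was not tested.

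**Figure D5:**
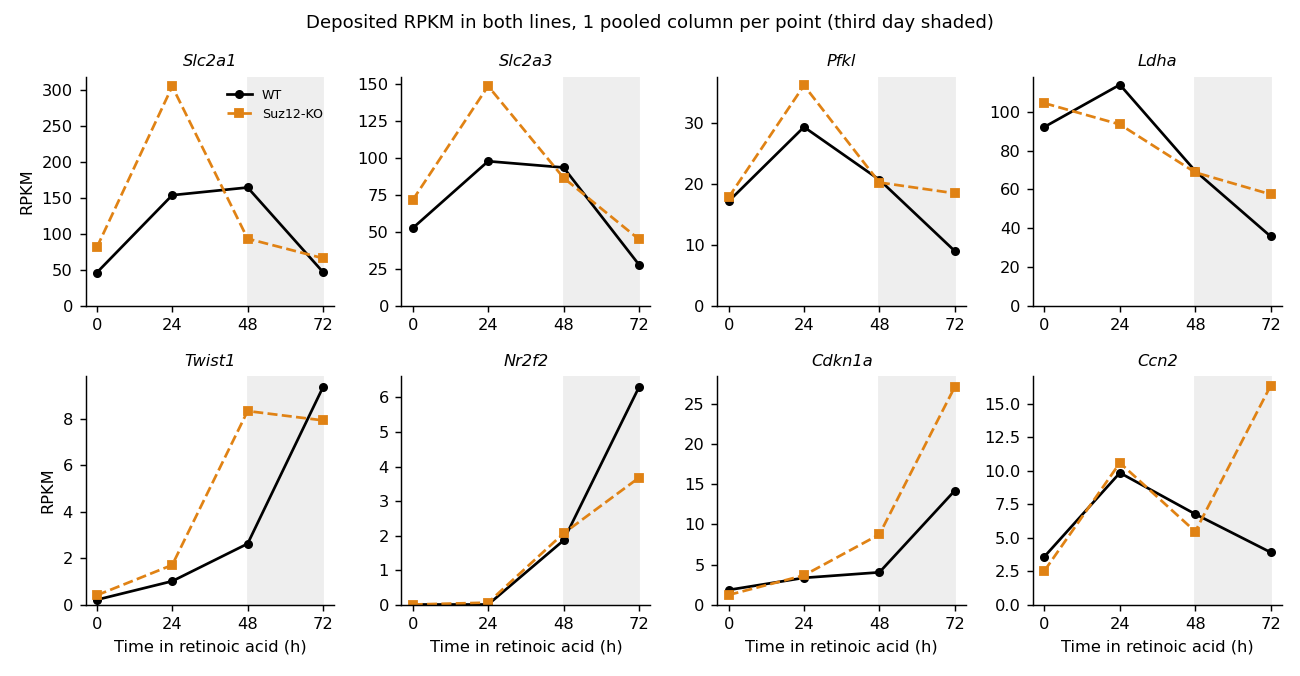
RPKM, on linear axes from 0, of 8 genes at 0, 24, 48 and 72 h in WT cells (black circles) and in the line labelled Suz12-KO (orange squares); each point is 1 pooled column and the interval from 48 to 72 h is shaded. In the shaded interval Slc2a1 goes from 164 to 46.5 RPKM in WT and from 93.0 to 65.8 RPKM in Suz12-KO, and Ccn2 goes from 6.77 to 3.91 RPKM in WT and from 5.47 to 16.4 RPKM in Suz12-KO.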

How the data were processed

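RNA was sequenced after depletion of ribosomal RNA and removal of small RNA, per the labels' protocols, in 16 samples of 8 groups of 2. The authors' deposited table gives RPKM for 24452 genes in 1 column per group. The sources used here do not say how the samples of a group were pooled. The submitters' processing notes name TopHat, featureCounts, DESeq2 and GRCm38 (mm10), without roles or versions. The deposited TRUE or FALSE marks for 72 h against 0 h were copied as the authors' own calls. Nothing in the sources used here says whether reads were counted by strand.

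Whole reads were recovered by finding the total of each column and the length of each gene that make every value whole, with annotated lengths for 14150 genes and lengths from the steps between values for 10302. Each of the 153803 nonzero values then gave a whole number to within 0.01 reads. Reads served for 95% intervals (exact Poisson, and exact Clopper-Pearson for ratios) and for limits, never for a test. Symbols came from GENCODE M21 by gene ID (23857 genes). RPKM were divided by median-of-ratios factors over the 8 columns, 0.5 was added and log2 taken. Genes with at least 1 RPKM at 48 or 72 h were kept, and at least 2-fold is the call. A limma fit had been planned for replicate columns and was not run, because each group has 1 column. The steps were checked on simulated data.

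The members, gene lists and rules were chosen with earlier results of these data known, so no list is independent support. Named genes are the markers Acta2, Tagln and Aldh1a2, the 12 protein-coding genes with the largest change each way with at least 5 RPKM, the 5 other genes each way longer than 200 bases, up to 6 kept genes of each list each way, and Suz12, Pou5f1, Nanog, Cyp26a1 and Rarb as checks. Alternatives tried were other scalings, pseudocounts, filters and a counting-interval rule. A few genes that the rule names are not reported here. Promoters came from RefSeq (GRCm38.p6). Python 3.11.15, numpy 2.4.6, pandas 2.3.3, scipy 1.17.1 and matplotlib 3.10.9 were used.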

Additional observations from a re-analysis of the deposited data

Results flagged for a closer look

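Of the 682 kept genes that are in a list or named for their change, 3 were at least 1.5-fold apart between 48 and 72 h in opposite directions in WT cells and in the line labelled Suz12-KO, with counting intervals of both folds that leave out no change. With 1 column per group, the difference between the lines was not tested for any of them. Nr2f1, a COUP nuclear receptor, had a log2 change of 0.98 in WT cells (1.89 and 4.30 RPKM at 48 and 72 h) and -0.59 in Suz12-KO (3.96 and 2.26 RPKM). Sp5, a Wnt target transcription factor, had -0.64 in WT cells (1.96 and 1.08 RPKM) and 1.02 in Suz12-KO (0.637 and 1.79 RPKM). Ccn2, a matrix-associated target of the Hippo pathway, had -0.73 in WT cells (6.77 and 3.91 RPKM) and 1.58 in Suz12-KO (5.47 and 16.4 RPKM).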

How the results depend on the processing

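The number of genes called depended on the added constant and the filter. With 1 RPKM added in place of 0.5, 170 genes were higher and 109 lower, and with at least 5 RPKM required, 104 were higher and 54 lower, in place of 258 and 171; all of these genes were among those called in the report. Under the other alternatives the counts stayed within 1.5 times. As deposited there were 275 and 171, with the median ratio of the 2 columns 258 and 179, scaled to protein-coding reads 243 and 190, with 0.1 added 381 and 242, without a filter 309 and 211, in protein-coding genes 193 and 114, and with counting intervals that leave out no change 217 and 135. Over genes longer than 200 bases, an alternative chosen after seeing the data, there were 201 and 124. The share of WT higher genes also higher in Suz12-KO ran from 38.7% to 56.5%, and that of lower genes from 28.4% to 39.5%. Of 682 kept genes in a list or named for their change 0 changed direction while called. With 1 added, 29 lost the call, and with 0.1 added 35 gained it. No paired analysis was possible because each group has 1 pooled column, and leaving out a replicate was not run for the same reason. Medians that turned sign were near 0: that of the Bcl2 family was -0.01 and 0.01 as deposited, and that of Wnt signalling was 0.04 and -0.002 when scaled to protein-coding reads. Of 44 list medians, 9 moved by at least 0.1 with 0.1 added, and 9 did with 1 added. The mesoderm factor median of 1.18 became 1.455 with 0.1 added and 0.832 with 1 added. The pluripotency median of -1.15 became -1.373 and -0.911. No interval here covers more than counting error, and genes near 1 RPKM rest on few reads.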
